A study of Homo sapiens with 12 samples.

Results

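The genes described are 32 genes of cholesterol and fatty acid synthesis and of its control, chosen by symbol and looked up by Ensembl identifier in the deposited count tables. They are 19 genes of the sterol branch, 8 of the fatty acid branch and 5 that control both, of 60669 identifiers in all. Each of the 32 symbols matched 1 identifier, and all 32 passed the filter on low counts that left 16695 genes for testing. RNA was sequenced from PANC-1, a human pancreatic ductal adenocarcinoma cell line that was otherwise wild type. Cells were reverse transfected for 72 h with an siRNA against SIK3, a protein kinase of the salt-inducible family, or with a control siRNA, each given as 1 sequence. The stimulus was TNF-α at 100 ng/mL, a cytokine of inflammation that signals through NF-κB. The 6 groups are SIK3 siRNA with no TNF, with TNF for 30 min and with TNF for 4 h, and control siRNA with no TNF, with TNF for 30 min and with TNF for 4 h. Each group has 2 libraries from biological replicates, 12 libraries in all.

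The conditions used here are the words in the submitters' file names, and the sample titles and characteristics give another condition for 8 of the 12 libraries. The titles call the target AS1, and the characteristics of the same samples name it SIK3, so AS1 is read as SIK3 here. One file-name word, read as no TNF by elimination, is not spelled out. The libraries named SIK3 siRNA with no TNF are titled as SIK3 siRNA with TNF for 30 min, and those named SIK3 siRNA with 30 min are titled as control siRNA with 4 h. The libraries named control siRNA with 30 min are titled as unstimulated SIK3 siRNA, and those named control siRNA with 4 h are titled as control siRNA with 30 min. Titles and file names give the same condition for control siRNA with no TNF and for SIK3 siRNA with 4 h. The targeted gene, SIK3 (ENSG00000160584, chromosome 11, 116843402 to 117098437, minus strand, GRCh38), was at 16.3 and 22.4 CPM without TNF, 17.3 and 24.0 CPM at 30 min and 18.3 and 22.8 CPM at 4 h in libraries named SIK3 siRNA, against 34.3 and 60.4 CPM, 42.5 and 68.7 CPM and 34.4 and 65.2 CPM at the same times in libraries named control siRNA. All 6 libraries named SIK3 siRNA lay below all 6 named control siRNA, and SIK3 was 2.52-fold lower on average (log2 fold change −1.33 ± 0.22, SE; adjusted p = 0.00052, edgeR quasi-likelihood test). SIK1, of the same family, was at 13.7 to 22.1 CPM in libraries named SIK3 siRNA and 1.94 to 5.73 CPM in those named control siRNA. SIK2 was at 46.0 to 62.4 CPM and 32.7 to 48.5 CPM, with overlap. The part of SIK1 in the results below was not tested. With 1 siRNA sequence, loss of SIK3 and other effects of that sequence cannot be told apart. SIK3 siRNA and control siRNA below stand for libraries so named in their file names, and every direction rests on those names.

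Gene counts per library ran from 13535825 to 22699756, so a gene with 0 counts could lie at up to 0.132 to 0.222 CPM (3 counts; counting error only). CPM are counts scaled to a common library size, with TMM as the correction for library composition. Reads mapping to several places were 4.94 to 17.6% of reads in the replicate 1 libraries and 10.2 to 45.3% in replicate 2. Reads in no annotated gene were 16.5 and 17.1% in the 2 libraries of SIK3 siRNA with TNF for 4 h, against 8.35 to 10.5% in the other 10. All 7 genes fixed to mark PANC-1 cells passed the filter. Their summed level was 6666 to 8590 CPM with SIK3 siRNA and 9229 to 10343 CPM with control siRNA, without overlap, and the part of this difference in the results below was not tested. Without overlap were VIM (1353 to 2320 CPM with SIK3 siRNA and 3262 to 3998 CPM with control siRNA), CDH1 (28.1 to 37.6 CPM with SIK3 siRNA and 72.5 to 86.9 CPM with control siRNA) and EPCAM (31.0 to 45.0 CPM with SIK3 siRNA and 46.7 to 55.0 CPM with control siRNA), while KRT7, KRT8, KRT18 and KRT19 overlapped. The markers of leukocytes, acinar cells and hepatocytes were at or near 0 (0 of 10 tested; acinar genes had no count), and those of endothelial cells and adipocytes summed to at most 1.21 and 0.797 CPM. Summed fibroblast markers were 7.06 to 15.7 CPM with SIK3 siRNA and 5.98 to 9.53 CPM with control siRNA, with 2 of 4 tested. In bulk RNA, fewer cells of a type and less RNA per cell cannot be told apart.

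Cholesterol is built from acetyl-CoA through mevalonate, isoprenoid diphosphates, squalene and lanosterol, and fatty acids from the same acetyl-CoA by carboxylation, repeated elongation and desaturation. Both routes are switched on by the sterol regulatory element-binding proteins, SREBP, membrane-bound transcription factors encoded by SREBF1 and SREBF2. The escort protein SCAP carries them to the Golgi for cleavage when membrane sterol is low, and INSIG1 and INSIG2 hold SCAP back in the endoplasmic reticulum when sterol is plentiful. INSIG1 is itself a target of SREBP, which closes a feedback loop. Pancreatic ductal tumour cells are known to make lipid at a high rate, and in mice loss of Sik3 alters lipid and cholesterol metabolism.

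Set per kb of exon, so that genes can be compared, the 32 genes spanned a wide range of levels. SCD, the desaturase that makes monounsaturated fatty acids, stood highest at 583.5 CPM per kb (mean of 12 libraries). ACLY, which makes cytosolic acetyl-CoA from citrate, followed at 51.3 CPM per kb, and HMGCS1, the synthase that makes HMG-CoA, at 51.0 CPM per kb. The squalene epoxidase gene SQLE was at 40.3 CPM per kb, and the ranges of ACLY, HMGCS1 and SQLE over the 12 libraries overlap. The place of INSIG1 depended on the siRNA, with group means of 16.6 to 24.1 CPM per kb for SIK3 siRNA and 57.3 to 78.3 CPM per kb for control siRNA. Every SIK3 siRNA library had less INSIG1 per kb than the lowest library of ACLY (43.8 CPM per kb), of HMGCS1 (40.8) and of SQLE (35.2). At the low end stood the mevalonate kinase gene MVK at 1.85 CPM per kb, the lanosterol demethylase gene CYP51A1 at 0.380 CPM per kb and the elongase gene ELOVL6 at 0.148 CPM per kb. CYP51A1 had 287 counts over all 12 libraries, while its pseudogenes CYP51A1P1 and CYP51A1P2 had 203 and 201. Reads that map to several of these near-identical copies may have gone uncounted, so its values are uncertain.

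**Figure D1:**
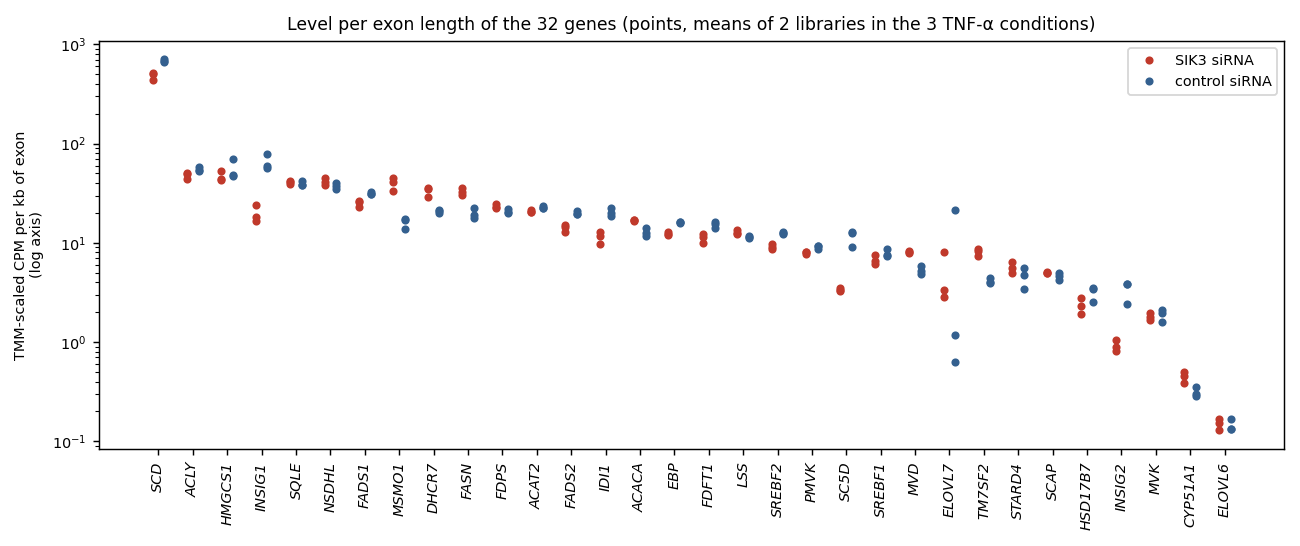
Level of each of the 32 genes per kb of exon (TMM-scaled CPM per kb, log axis), ordered by the mean of 12 libraries; each point is the mean of 2 libraries, with SIK3 siRNA left of control siRNA at each gene. SCD stands alone at the top with a mean of 583.5 CPM per kb, and ELOVL6 is lowest at 0.148 CPM per kb.

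With SIK3 siRNA the genes of these pathways changed in both directions rather than together. INSIG1, INSIG2 and the sterol desaturase gene SC5D fell by more than 3-fold, while MSMO1, TM7SF2 and FASN rose by 1.67- to 2.47-fold. Averaged over the 3 TNF conditions, 22 of the 32 genes were called at an adjusted p under 0.05, 9 higher and 13 lower. Over all genes tested the same comparison called 59.2%, 30.2% higher and 29% lower, so the share among the 32 lies near the background. The median log2 fold change was −0.10 over the 32 genes and 0.02 over all genes tested. The replicate numbers pair the libraries, and with the replicate number as a block in the fit 29 of the 32 were called, against 72.5% of all genes. Scaling by library totals alone gave 12 higher and 11 lower, with HMGCS1 and HSD17B7 no longer called and CYP51A1, FDPS and SCAP called. P-values measure the spread between the 2 libraries of a group, pooled over the 6 groups.

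By branch, 6 of the 19 sterol genes were higher and 6 lower (median 0.05). In the fatty acid branch 3 of the 8 genes were higher and 4 lower (median −0.09), and 3 of the 5 control genes were lower and 0 higher (median −0.46). With the block, 17 of the 19 sterol genes were called, 9 higher and 8 lower, beside 72.5% of all genes. It called 7 of the 8 fatty acid genes and all 5 control genes. In each TNF condition alone, 16 genes were called without TNF, 15 at 30 min and 16 at 4 h, where 38.6, 37.8 and 39.5% of all genes were called. The block raised these counts to 23, 25 and 23, where 9746, 9771 (58.5%) and 9814 of 16695 genes tested were called with it. Without TNF 7 genes were higher and 9 lower, beside 18.9 and 19.8% of all genes, and scaling by library totals turned this split to 9 and 6. At 30 min 6 were higher and 9 lower, beside 18.2 and 19.6% of all genes, and library totals turned it to 7 and 4. Without replicate 2 of SIK3 siRNA with no TNF the first count was 10, and without replicate 1 of control siRNA at 30 min the second was 9.

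Called in all 3 conditions were 13 genes, 40.6% of the 32, where 27.0% of all genes were. DHCR7, MVD, MSMO1, TM7SF2 and FASN were higher each time (12.5% of all genes were), and FDFT1, SC5D, INSIG1, INSIG2, SCD, FADS1 and FADS2 were lower each time (14.2% of all genes were). ELOVL7 was the exception in direction. DHCR7, SC5D, MSMO1, TM7SF2, INSIG1, INSIG2 and ELOVL7 kept all 3 calls whichever single library was left out; MVD, FDFT1, FASN, SCD, FADS1 and FADS2 lost at least 1 of theirs. Without overlap between the 6 SIK3 siRNA and the 6 control siRNA libraries were 6 genes above and 10 below, where 16.8 and 17.6% of all genes were. The 3 comparisons use separate libraries, and the average uses all 12.

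**Figure D2:**
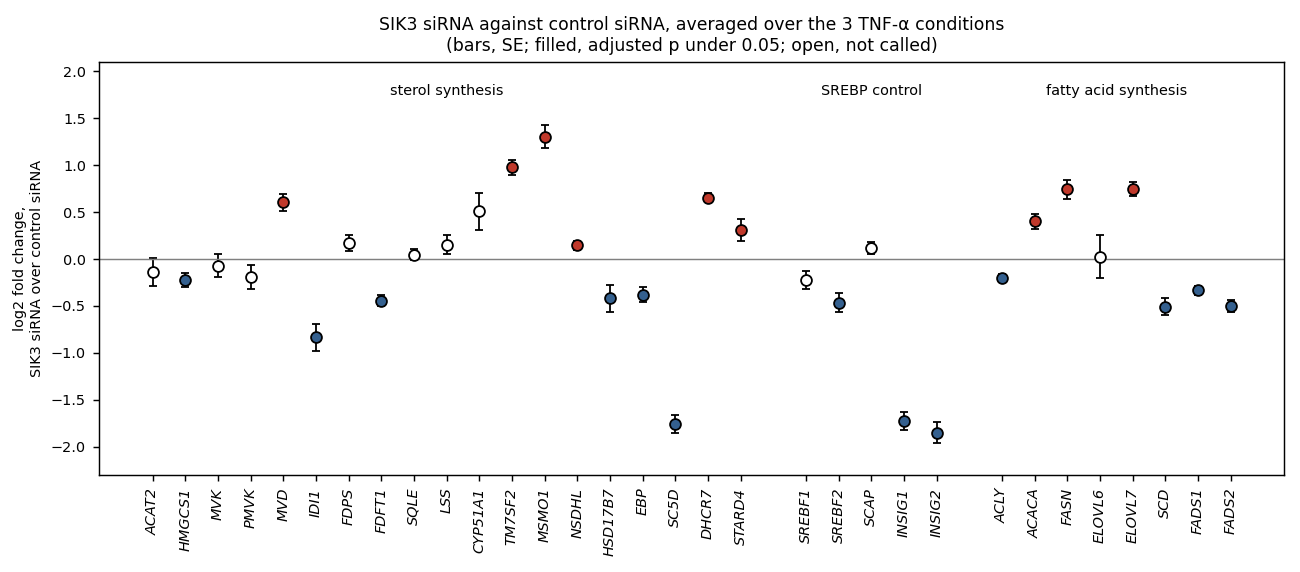
Log2 fold change of each gene, SIK3 siRNA over control siRNA, averaged over the 3 TNF conditions (12 libraries; bars, SE; filled, adjusted p under 0.05; open, not called), in pathway order within each branch. INSIG1 (−1.72), INSIG2 (−1.85) and SC5D (−1.76) lie lowest, and MSMO1 (1.30) and TM7SF2 (0.98) highest.

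Among the control genes, both INSIG genes were lower. INSIG1 (ENSG00000186480, chromosome 7, 155297776 to 155310235, plus strand), the sterol-sensing anchor under SREBP control, was at 72.4 and 61.8 CPM without TNF, 94.7 and 81.1 CPM at 30 min and 68.0 and 52.9 CPM at 4 h in libraries named SIK3 siRNA, against 225 and 193 CPM, 241 and 189.7 CPM and 305 and 267 CPM at the same times in libraries named control siRNA. Every SIK3 siRNA library lay below every control siRNA library, the highest at 94.7 CPM and the lowest control at 189.7 CPM. INSIG1 was 3.30-fold lower on average (log2 fold change −1.72 ± 0.10, adjusted p = 3.82e-07). By condition it was 3.12-fold lower without TNF (adjusted p = 6.37e-05), 2.45-fold lower at 30 min (adjusted p = 0.000266) and 4.73-fold lower at 4 h (adjusted p = 1.63e-05).

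INSIG2 (ENSG00000125629, chromosome 2, 118088452 to 118110997, plus strand), the second anchor, which is not driven by SREBP in the same way, was at 4.77 and 3.6 CPM without TNF, 3.82 and 3.29 CPM at 30 min and 3.72 and 2.65 CPM at 4 h in libraries named SIK3 siRNA, against 14.8 and 15.7 CPM, 14.5 and 16.2 CPM and 9.11 and 10.0 CPM at the same times in libraries named control siRNA. It was the less abundant of the pair, at 2.15 CPM per kb over the 12 libraries. The siRNA groups again did not overlap, and INSIG2 was 3.61-fold lower on average (log2 fold change −1.85 ± 0.11, adjusted p = 5.74e-07).

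The transcription factor genes themselves moved less. SREBF2, whose product favours sterol genes, was at 56.8 and 79.3 CPM without TNF, 56.6 and 73.6 CPM at 30 min and 69.8 and 77.5 CPM at 4 h in libraries named SIK3 siRNA, against 89.7 and 100.0 CPM, 88.5 and 97.9 CPM and 90.6 and 103 CPM at the same times in libraries named control siRNA. All SIK3 siRNA libraries lay below all control siRNA libraries, and SREBF2 was 1.38-fold lower on average (adjusted p = 0.00292). Within single conditions it was called at 30 min (adjusted p = 0.0415; lost in 6 of 12 omissions of 1 library, adjusted p up to 0.226), and without TNF and at 4 h with the block only (adjusted p = 8.72e-06 and 0.000142, against 0.0547 and 0.103 without it).

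SREBF1, whose product favours fatty acid genes, was at 49.0 and 56.7 CPM without TNF, 56.5 and 65.8 CPM at 30 min and 42.7 and 56.0 CPM at 4 h in libraries named SIK3 siRNA, against 55.9 and 66.1 CPM, 62.2 and 77.3 CPM and 57.5 and 61.3 CPM at the same times in libraries named control siRNA. The groups overlapped, and its averaged log2 fold change of −0.22 ± 0.10 was called only with the block (adjusted p = 5.10e-05, against 0.0715 without it). SREBF1 overlaps the gene RAI1 on the opposite strand over 1055 bases, and the strand setting of the counting is not given in the sources used here. SCAP, the escort, was at 31.4 and 32 CPM without TNF, 30.6 and 33.1 CPM at 30 min and 32.3 and 33.1 CPM at 4 h in libraries named SIK3 siRNA, against 32 and 28.3 CPM, 31.5 and 31.7 CPM and 29.5 and 24.5 CPM at the same times in libraries named control siRNA. Its averaged log2 fold change was 0.12 ± 0.07, again called only with the block (adjusted p = 0.0482, against 0.151 without it).

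Promoters are shown for INSIG2, SC5D, INSIG1 and MSMO1, the 4 genes with the largest averaged changes, and for ELOVL7, whose direction changed with TNF. Each is the RefSeq window (GRCh38.p14) from 250 bases before to 50 bases after the start, 5′ to 3′ on the gene's strand, with capitals marking the E-box CACGTG and the NF-Y box CCAAT on either strand. INSIG2 and SC5D have 2 entries each, and the one nearest the annotated gene start is shown. The start of the window's gene lies 19 bases from the annotated start for INSIG2 and 318 bases for SC5D.
INSIG2 (chr2:118088221-118088520, plus strand): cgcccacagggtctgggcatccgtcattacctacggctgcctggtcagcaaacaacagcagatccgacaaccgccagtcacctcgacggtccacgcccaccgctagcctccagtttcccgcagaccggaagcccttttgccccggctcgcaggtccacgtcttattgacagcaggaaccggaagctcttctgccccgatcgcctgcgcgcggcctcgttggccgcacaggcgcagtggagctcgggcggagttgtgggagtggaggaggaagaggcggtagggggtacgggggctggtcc
INSIG1 (chr7:155297628-155297927, plus strand): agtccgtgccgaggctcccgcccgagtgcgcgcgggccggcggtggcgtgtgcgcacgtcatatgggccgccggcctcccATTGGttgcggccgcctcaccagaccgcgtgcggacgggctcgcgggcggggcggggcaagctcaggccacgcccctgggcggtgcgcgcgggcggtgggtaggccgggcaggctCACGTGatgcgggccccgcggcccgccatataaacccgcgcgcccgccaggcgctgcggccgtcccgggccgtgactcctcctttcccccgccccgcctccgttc
SC5D (chr11:121292521-121292820, plus strand): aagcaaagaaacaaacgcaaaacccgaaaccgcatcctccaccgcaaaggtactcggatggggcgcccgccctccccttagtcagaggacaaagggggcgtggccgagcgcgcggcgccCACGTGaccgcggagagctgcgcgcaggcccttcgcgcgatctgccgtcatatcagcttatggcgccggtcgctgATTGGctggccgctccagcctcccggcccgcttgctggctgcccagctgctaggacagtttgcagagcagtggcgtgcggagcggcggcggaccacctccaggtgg
MSMO1 (chr4:165327419-165327718, plus strand): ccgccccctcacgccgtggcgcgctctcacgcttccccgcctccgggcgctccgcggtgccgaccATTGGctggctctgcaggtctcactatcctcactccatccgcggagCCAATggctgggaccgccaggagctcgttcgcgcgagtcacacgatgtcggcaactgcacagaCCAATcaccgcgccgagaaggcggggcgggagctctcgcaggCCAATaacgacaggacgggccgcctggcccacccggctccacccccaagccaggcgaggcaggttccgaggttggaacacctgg
ELOVL7 (chr5:60844220-60844519, minus strand): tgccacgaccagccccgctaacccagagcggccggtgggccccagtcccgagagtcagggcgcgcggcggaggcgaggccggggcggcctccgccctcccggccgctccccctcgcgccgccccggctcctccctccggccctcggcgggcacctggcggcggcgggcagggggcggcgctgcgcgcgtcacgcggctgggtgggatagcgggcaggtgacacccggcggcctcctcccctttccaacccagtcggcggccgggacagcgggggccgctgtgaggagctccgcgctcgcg

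The NF-Y box, bound by a factor known to act with SREBP, was found in 20 of the 28 genes with a promoter entry (71.4%) and in 39.7% of 27305 genes with one, or 42.9% of those tested here. It was in 14 of 16 sterol genes, 4 of 7 fatty acid genes and 2 of 5 control genes. In the windows shown MSMO1, which was higher with SIK3 siRNA, has 4 such boxes, and INSIG1 and SC5D, which were lower, have 1 each. INSIG2, also lower, and ELOVL7 have neither this box nor the E-box in the windows shown. Of genes called higher in the averaged comparison 7 of 8 held the box, of those called lower 10 of 12, and of those not called 3 of 8. The E-box was found in LSS, SC5D, SCAP and INSIG1, 4 of 28 genes (14.3%), against 8.78% of all genes and 12.5% of those tested. The sterol regulatory element core, TCACNCCAC on either strand, was found in SREBF2 alone, against 1.39% of all genes and 1.51% of those tested. These letters describe the windows and show no binding.

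**Figure D3:**
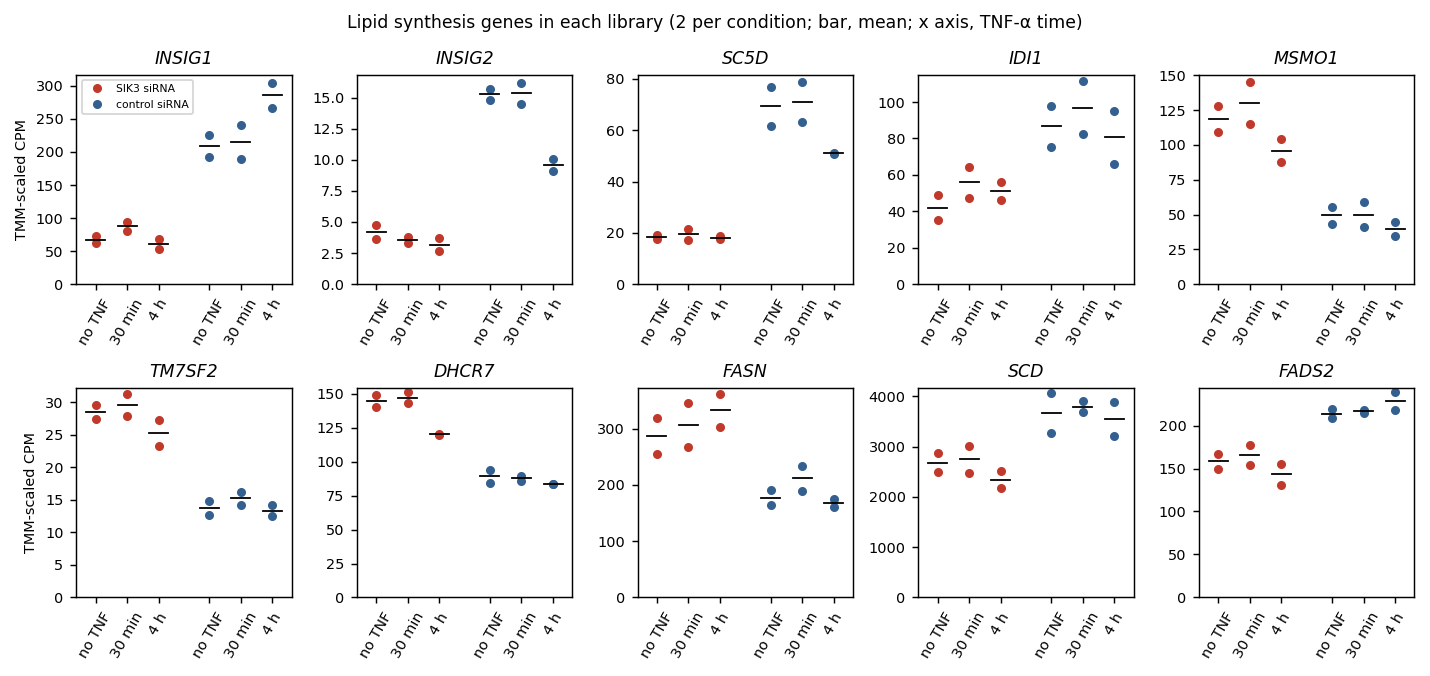
TMM-scaled CPM of 10 genes in each of the 12 libraries, SIK3 siRNA left of control siRNA, with the mean of the 2 libraries of a condition as a bar and the time of TNF-α on the x axis. INSIG1, INSIG2, SC5D, IDI1, SCD and FADS2 are lower in all SIK3 siRNA libraries than in any control siRNA library, and MSMO1, TM7SF2, DHCR7 and FASN are higher.

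In the sterol branch, HMGCS1 alone was called among 4 genes of the early steps, from acetyl-CoA to mevalonate and its phosphorylated forms. HMGCS1 was at 208 and 196 CPM without TNF, 223 and 192 CPM at 30 min and 271 and 229 CPM at 4 h in libraries named SIK3 siRNA, against 226 and 217 CPM, 247 and 205 CPM and 344 and 321 CPM at the same times in libraries named control siRNA. The groups overlapped, and HMGCS1 was 1.17-fold lower on average (adjusted p = 0.0214, with the block 3.43e-06). It was called at 4 h (1.33-fold lower, adjusted p = 0.0240, lost in 3 of 12 omissions of 1 library). Its averaged call was lost without replicate 2 of SIK3 siRNA with no TNF or without replicate 2 of SIK3 siRNA with 4 h. It was also lost without both libraries of SIK3 siRNA with 4 h, where the average covers only no TNF and 30 min. In either condition alone HMGCS1 was not called (log2 fold change −0.13 and −0.12). ACAT2, the cytosolic thiolase that makes acetoacetyl-CoA, ranged over 75.6 to 107 CPM with SIK3 siRNA and 79.2 to 117 CPM with control siRNA, and its averaged log2 fold change of −0.14 ± 0.15 was called with the block alone (adjusted p = 0.00491, against 0.452). ACAT2 overlaps TCP1 on the other strand, a gene with a mean of 474 CPM. The kinase genes MVK and PMVK, which phosphorylate mevalonate in turn, had averaged log2 fold changes of −0.07 ± 0.12 (adjusted p = 0.653) and −0.19 ± 0.13 (adjusted p = 0.226, with the block 0.0463). MVK, which overlaps MMAB on the other strand by 620 bases, ranged over 9.21 to 13.8 CPM with SIK3 siRNA and 8.93 to 14.7 CPM with control siRNA, and PMVK over 8.82 to 11.8 CPM with SIK3 siRNA and 9.47 to 13.7 CPM with control siRNA.

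The next steps, which make the isoprenoid units and join them, included clear changes in both directions. MVD, the decarboxylase that yields isopentenyl diphosphate, was at 38.9 and 35.4 CPM without TNF, 42.6 and 34.2 CPM at 30 min and 42.4 and 34.8 CPM at 4 h in libraries named SIK3 siRNA, against 27.2 and 22.5 CPM, 23.3 and 22.9 CPM and 29.2 and 25.5 CPM at the same times in libraries named control siRNA. It was higher in every SIK3 siRNA library, 1.52-fold on average (adjusted p = 0.000238). IDI1, the isomerase that acts on the product of MVD, was lower: it ranged over 35.0 to 64.5 CPM (median 47.9) with SIK3 siRNA and 66.3 to 111 CPM (median 88.8) with control siRNA, without overlap. IDI1 was 1.78-fold lower on average (adjusted p = 0.000780), called without TNF (adjusted p = 0.00932) and at 30 min (adjusted p = 0.0324), and at 4 h with the block only (adjusted p = 3.96e-08, against 0.0650). The call without TNF was lost without replicate 2 of SIK3 siRNA or replicate 1 of control siRNA at that time (adjusted p up to 0.078), and the call at 30 min likewise (adjusted p 0.163 and 0.174). FDPS, which makes farnesyl diphosphate, ranged over 78.3 to 101 CPM with SIK3 siRNA and 69.1 to 87.5 CPM with control siRNA, and its averaged log2 fold change of 0.17 ± 0.09 was called with the block alone (adjusted p = 0.000259, against 0.109).

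From farnesyl diphosphate to lanosterol, FDFT1 was lower and the later enzymes overlapped between groups. FDFT1, squalene synthase, was at 60.8 and 57.7 CPM without TNF, 65.5 and 62.2 CPM at 30 min and 54.1 and 48.7 CPM at 4 h in libraries named SIK3 siRNA, against 85.5 and 76.2 CPM, 85.5 and 81.9 CPM and 69.1 and 76.1 CPM at the same times in libraries named control siRNA. It was 1.36-fold lower on average (adjusted p = 0.000102), with no library of SIK3 siRNA reaching the lowest control siRNA library. SQLE, the epoxidase that follows, ranged over 159 to 189 CPM with SIK3 siRNA and 152 to 191 CPM with control siRNA and had an averaged log2 fold change of 0.05 ± 0.06 (adjusted p = 0.534). LSS, which cyclises the epoxide to lanosterol, ranged over 82.2 to 106 CPM with SIK3 siRNA and 72.7 to 96.7 CPM with control siRNA, with an averaged log2 fold change of 0.15 ± 0.11 called with the block alone (adjusted p = 0.000509, against 0.238).

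The steps that trim lanosterol to cholesterol held the largest changes of the branch. CYP51A1 had an averaged log2 fold change of 0.51 ± 0.20 at 1.33 to 2.04 CPM with SIK3 siRNA and 0.789 to 1.74 CPM with control siRNA (adjusted p = 0.0508, with the block 0.0256). TM7SF2, a sterol C14 reductase, was at 29.6 and 27.4 CPM without TNF, 31.3 and 27.9 CPM at 30 min and 23.3 and 27.2 CPM at 4 h in libraries named SIK3 siRNA, against 14.8 and 12.7 CPM, 16.2 and 14.2 CPM and 14.1 and 12.6 CPM at the same times in libraries named control siRNA. It was higher in every SIK3 siRNA library, 1.97-fold on average (log2 fold change 0.98 ± 0.08, adjusted p = 4.43e-06). TM7SF2 overlaps VPS51 on its own strand by 16 bases.

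MSMO1 (ENSG00000052802, chromosome 4, 165327623 to 165343160, plus strand), the oxidase that starts removal of the C4 methyl groups, was at 128 and 109 CPM without TNF, 145 and 115 CPM at 30 min and 104 and 87.5 CPM at 4 h in libraries named SIK3 siRNA, against 55.5 and 43.4 CPM, 59.1 and 40.9 CPM and 44.9 and 34.6 CPM at the same times in libraries named control siRNA. The lowest SIK3 siRNA library, at 87.5 CPM, stood above the highest control siRNA library, at 59.1 CPM. MSMO1 was 2.47-fold higher on average (log2 fold change 1.30 ± 0.13, adjusted p = 1.31e-05), and 2.40-fold, 2.60-fold and 2.41-fold higher without TNF, at 30 min and at 4 h.

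The enzymes that work on with the product of MSMO1 moved less. NSDHL, the decarboxylase of the C4 position, ranged over 73.3 to 90.5 CPM with SIK3 siRNA and 69.8 to 79.8 CPM with control siRNA and was 1.11-fold higher on average (adjusted p = 0.0323), a call lost when any one of 10 libraries was left out (adjusted p up to 0.109). HSD17B7, the ketoreductase, ranged over 7.99 to 16.0 CPM with SIK3 siRNA and 10.1 to 18.5 CPM with control siRNA and was 1.34-fold lower (adjusted p = 0.0304); 6 of 12 such omissions ended this call, as did leaving out both libraries of SIK3 siRNA with 4 h. Its pseudogene HSD17B7P2 had 192 counts, against 2789 for HSD17B7. These omissions used the fit without the block, and with the block the averaged calls of NSDHL and HSD17B7 were kept. Between libraries of the same replicate number and time, NSDHL was higher with SIK3 siRNA in every pair, and HSD17B7 was lower in every pair. EBP, the sterol isomerase, ranged over 27.5 to 33.5 CPM with SIK3 siRNA and 34.7 to 42.5 CPM with control siRNA, without overlap, and was 1.30-fold lower (adjusted p = 0.00246).

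The last 2 enzymes on this route went opposite ways. SC5D (ENSG00000109929, chromosome 11, 121292453 to 121308694, plus strand), the sterol C5 desaturase, was at 19.3 and 17.6 CPM without TNF, 21.6 and 17.4 CPM at 30 min and 18.7 and 17.5 CPM at 4 h in libraries named SIK3 siRNA, against 77.0 and 61.9 CPM, 78.7 and 63.0 CPM and 51.3 and 50.9 CPM at the same times in libraries named control siRNA. No SIK3 siRNA library exceeded 21.6 CPM, and no control siRNA library was under 50.9 CPM. SC5D was 3.38-fold lower on average (log2 fold change −1.76 ± 0.09, adjusted p = 2.02e-07), and 3.76-fold, 3.64-fold and 2.82-fold lower without TNF, at 30 min and at 4 h.

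DHCR7 (ENSG00000172893, chromosome 11, 71428193 to 71452868, minus strand), the reductase that turns the product of SC5D into cholesterol, was at 140.5 and 149.5 CPM without TNF, 143 and 151 CPM at 30 min and 119.8 and 121 CPM at 4 h in libraries named SIK3 siRNA, against 94.2 and 84.3 CPM, 89.4 and 86.2 CPM and 84.0 and 83.8 CPM at the same times in libraries named control siRNA. It was higher in every SIK3 siRNA library, 1.57-fold on average (log2 fold change 0.65 ± 0.05, adjusted p = 2.56e-06). STARD4, a cytosolic carrier of cholesterol, overlapped between groups at 26.7 to 40.7 CPM with SIK3 siRNA and 16.0 to 36.2 CPM with control siRNA. It was 1.24-fold higher on average (adjusted p = 0.0415), a call kept with the block. In the fit without the block this call was lost in 8 of 12 omissions of 1 library.

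In the fatty acid branch, FASN, ACACA and, on average, ELOVL7 were higher, and ACLY and the 3 desaturase genes were lower. FASN, the synthase that makes palmitate, was at 255 and 319 CPM without TNF, 268 and 345 CPM at 30 min and 302 and 362 CPM at 4 h in libraries named SIK3 siRNA, against 163 and 190.1 CPM, 188 and 234 CPM and 160.4 and 175 CPM at the same times in libraries named control siRNA. It was 1.67-fold higher on average (log2 fold change 0.74 ± 0.10, adjusted p = 0.000129), with no overlap. ACACA, the carboxylase that makes malonyl-CoA for FASN, ranged over 199 to 237 CPM (median 222) with SIK3 siRNA and 141 to 190.0 CPM (median 172) with control siRNA, also without overlap, and was 1.32-fold higher (adjusted p = 0.00159). ACLY, one step before, went the other way by a smaller amount, at 229 to 267 CPM with SIK3 siRNA and 265 to 303 CPM with control siRNA, 1.15-fold lower (adjusted p = 0.00365).

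SCD, the delta-9 desaturase, was at 2497 and 2868 CPM without TNF, 2464 and 3019 CPM at 30 min and 2178 and 2507 CPM at 4 h in libraries named SIK3 siRNA, against 3271 and 4071 CPM, 3683 and 3904 CPM and 3207 and 3878 CPM at the same times in libraries named control siRNA. Its highest SIK3 siRNA library lay under its lowest control siRNA library, and SCD was 1.42-fold lower on average (adjusted p = 0.000621). Within single conditions its call was lost in 2 to 4 omissions of 1 library. FADS1 and FADS2 are neighbouring genes for desaturases of polyunsaturated fatty acids. FADS1 was at 266 and 269 CPM without TNF, 257 and 273 CPM at 30 min and 230.1 and 244 CPM at 4 h in libraries named SIK3 siRNA, against 316 and 321 CPM, 334 and 331 CPM and 302 and 332 CPM at the same times in libraries named control siRNA, and was 1.26-fold lower on average (adjusted p = 0.000159).

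FADS2 was at 149.8 and 167 CPM without TNF, 154 and 178 CPM at 30 min and 131 and 155 CPM at 4 h in libraries named SIK3 siRNA, against 219 and 208 CPM, 215 and 218 CPM and 218 and 238 CPM at the same times in libraries named control siRNA, and was 1.41-fold lower on average (adjusted p = 0.000106). Both genes were lower in all SIK3 siRNA libraries. They overlap on opposite strands over 29694 bases, the whole of FADS1 as annotated, so without a stated strand setting their reads cannot be fully told apart. FADS2 also overlaps FEN1, a gene with a mean of 32.5 CPM, on its own strand over 4265 bases. ELOVL6, which elongates palmitate, was near the detection limit at 0.669 to 1.56 CPM with SIK3 siRNA and 0.823 to 1.34 CPM with control siRNA, with an averaged log2 fold change of 0.03 ± 0.23 (adjusted p = 0.930).

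TNF changed few of the 32 genes in the fit without the block. After 4 h, 1 gene was called with SIK3 siRNA, where 4.42% of all genes were, and 2 with control siRNA, where 8.99% were; all were higher with TNF. With the replicate block, 10 genes were called with SIK3 siRNA, 4 higher and 6 lower, where 21.8% of all genes were called. With control siRNA it called 9, 5 higher and 4 lower, where 23.5% of all genes were. Over all genes the split was 2080 higher and 1562 lower with SIK3 siRNA, and 1883 and 2045 with control siRNA. Among the lower genes was DHCR7 with SIK3 siRNA (log2 fold change −0.27, adjusted p = 0.00348 with the block and 0.131 without it). After 30 min, 0 genes were called with SIK3 siRNA, where 0.15% of all genes were, and 1 with control siRNA, where 0.294% were, in edgeR. With SIK3 siRNA at 30 min, 1 of the 32 had an unadjusted p under 0.05, 3 were called with the block, where 3.37% of all genes were, and 0 by the DESeq2 Wald test. The TNF comparisons with each siRNA share their unstimulated libraries with the comparison of siRNAs without TNF.

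HMGCS1 was 1.5-fold higher after 4 h with control siRNA (log2 fold change 0.59 ± 0.12, adjusted p = 0.0155), a call lost when any library of this pair was left out (adjusted p 0.0593 to 0.0933). With SIK3 siRNA its 4 h response was 0.31 ± 0.12 (adjusted p = 0.240, with the block 0.000578). INSIG1 had a 4 h response of −0.15 ± 0.17 with SIK3 siRNA (adjusted p = 0.787) and of 0.45 ± 0.17 with control siRNA (adjusted p = 0.156, with the block 1.63e-06). For STARD4 it was 0.17 ± 0.20 with SIK3 siRNA (adjusted p = 0.809) and 0.73 ± 0.21 with control siRNA (adjusted p = 0.0587, with the block 2.68e-06).

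The difference between the responses was tested as an interaction. At 4 h, 1 of the 32 genes was called, ELOVL7, where 1.56% of all genes were, and at 30 min 0 were, where 0.0% of all genes were. At 30 min 317 genes had an unadjusted p under 0.05, 1 of them among the 32, and the DESeq2 Wald test called 6 genes, 0 of them among the 32. With the block, 8 of the 32 were called at 4 h, where 12% of all genes were. Beside ELOVL7 these were INSIG1 (log2 difference of responses −0.60, adjusted p = 2.52e-05 with the block and 0.362 without it), STARD4 (−0.56, 0.00547 and 0.547), HMGCS1 (−0.28, 0.0263 and 0.687) and SQLE (−0.24, 0.0462 and 0.696), all with a lower response in SIK3 siRNA cells. SC5D (0.41, 0.0317 and 0.576), IDI1 (0.39, 0.00644 and 0.864) and FASN (0.29, 0.0210 and 0.835) had the opposite sign. The libraries of SIK3 siRNA with 4 h enter every one of these differences, and the part of their higher share of reads outside genes was not tested.

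**Figure D4:**
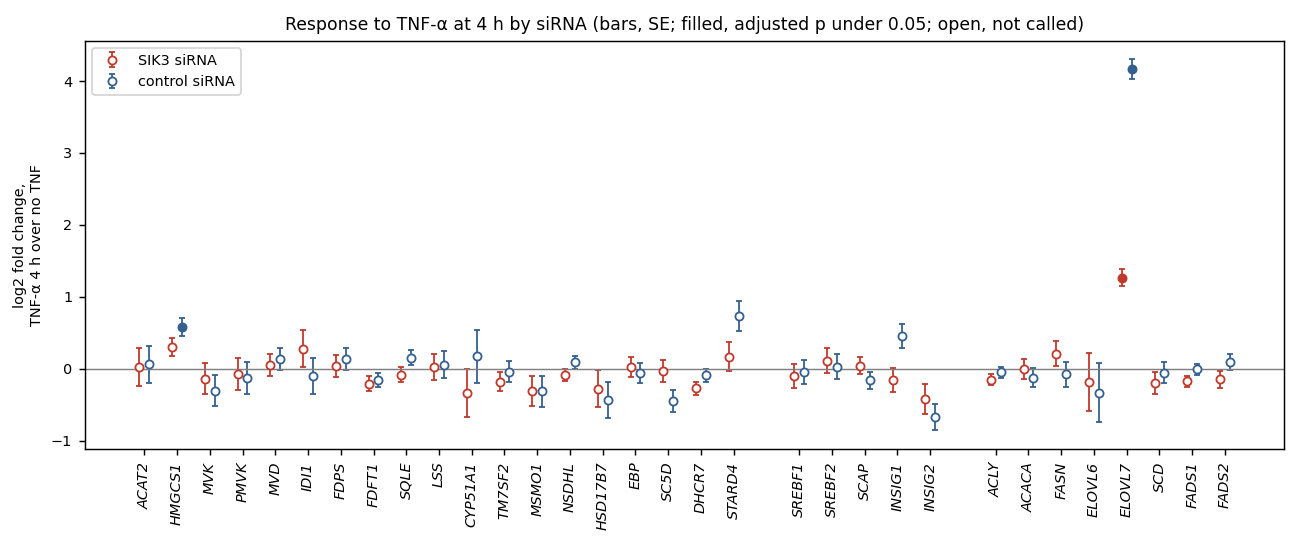
Log2 fold change of each gene after 4 h of TNF-α over no TNF, with SIK3 siRNA left of control siRNA at each gene (4 libraries per comparison; bars, SE; filled, adjusted p under 0.05; open, not called). ELOVL7 stands apart with 1.27 in SIK3 siRNA cells and 4.17 in control siRNA cells, and HMGCS1 with control siRNA is the other filled point.

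ELOVL7 (ENSG00000164181, chromosome 5, 60751791 to 60844389, minus strand), an elongase of long-chain fatty acids, had the largest response to TNF among the 32 genes. It was at 15.1 and 15.2 CPM without TNF, 12.9 and 13.0 CPM at 30 min and 39.6 and 33.6 CPM at 4 h in libraries named SIK3 siRNA, against 5.34 and 5.44 CPM, 2.85 and 2.95 CPM and 105 and 89.2 CPM at the same times in libraries named control siRNA. SIK3 siRNA libraries were above control siRNA libraries without TNF and at 30 min and below them at 4 h. ELOVL7 was 2.81-fold higher with SIK3 siRNA without TNF (log2 fold change 1.49 ± 0.13, adjusted p = 1.90e-05), 4.46-fold higher at 30 min (adjusted p = 3.09e-06) and 2.65-fold lower at 4 h (−1.41 ± 0.12, adjusted p = 2.23e-05).

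After 4 h of TNF, ELOVL7 rose 2.41-fold with SIK3 siRNA (adjusted p = 0.000536) and 18.0-fold with control siRNA (adjusted p = 5.75e-07). The difference of the responses was −2.90 ± 0.17 on the log2 scale (adjusted p = 0.000364), 7.46-fold. At 30 min with control siRNA ELOVL7 had a log2 fold change of −0.89 ± 0.14 (adjusted p = 0.0391), which left the called set when any one of the 12 libraries was left out (adjusted p 0.053 to 0.407). The NF-κB consensus was not found in its promoter window. It was in 5 of 28 genes of these pathways (17.9%), in 7.09% of all genes and in 9.17% of those tested. Sites outside the window were not searched, and the cause of the ELOVL7 response was not tested.

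**Figure D5:**
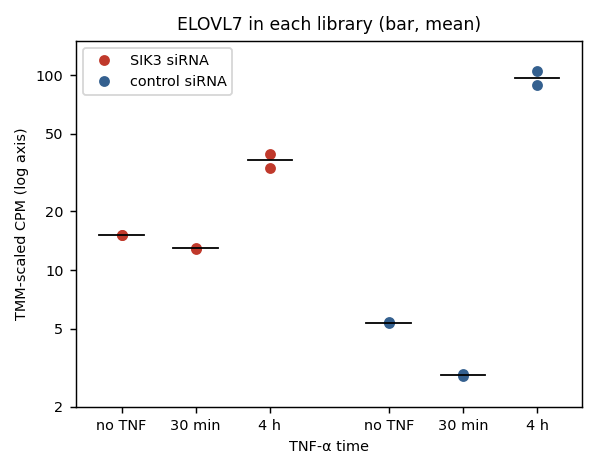
ELOVL7 in each of the 12 libraries (TMM-scaled CPM, log axis) by time of TNF-α, SIK3 siRNA left of control siRNA, with the mean of 2 libraries as a bar. The SIK3 siRNA libraries run from 12.9 to 39.6 CPM, and the control siRNA libraries from 2.85 to 104.8 CPM.

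The comparison of SIK3 siRNA with TNF for 4 h against control siRNA with no TNF, chosen after the data were seen, uses the 2 groups on whose condition titles and file names do not differ, and mixes siRNA with TNF. It called 19 of the 32 genes, 8 higher and 11 lower, where 41.0% of all genes were called, 20.9% higher and 20.1% lower; without replicate 1 of SIK3 siRNA with 4 h it called 12. INSIG1 was 3.46-fold lower (adjusted p = 4.17e-05), SC5D 3.83-fold lower (adjusted p = 1.79e-05) and INSIG2 4.81-fold lower (adjusted p = 2.61e-05). MSMO1 was 1.94-fold higher (adjusted p = 0.00609), TM7SF2 1.84-fold higher (adjusted p = 0.000848), FASN 1.88-fold higher (adjusted p = 0.00229) and ELOVL7 6.78-fold higher (adjusted p = 1.24e-06).

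Other genes of the same pathways were read from 6 lists in the averaged comparison of SIK3 siRNA with control siRNA, in which 59.2% of all genes were called, 30.2% higher and 29% lower. The counts below describe the lists beside that background, and no list was tested as a set. Of 10 other genes of SREBP processing and sterol sensing, 2 were higher and 5 lower (median log2 fold change −0.19, against 0.02 over all genes). RNF145, a sterol-responsive ubiquitin ligase that acts on SCAP in mice, was at 67.7 to 109.8 CPM with SIK3 siRNA and 191 to 207 CPM with control siRNA, 2.46-fold lower (adjusted p = 4.26e-08). The SREBP-cleaving proteases differed: MBTPS2, the site-2 protease, was 3.06-fold lower (3.36 to 4.96 CPM with SIK3 siRNA and 12.9 to 16.5 CPM with control siRNA; adjusted p = 5.89e-07), and MBTPS1, the site-1 protease, was 1.5-fold higher (132 to 158 CPM with SIK3 siRNA and 84.3 to 106 CPM with control siRNA; adjusted p = 0.000119).

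Of 20 other genes of fatty acid synthesis and elongation, 16 were tested, 2 were higher and 8 lower, with a median log2 fold change of −0.46. ELOVL2, an elongase of polyunsaturated fatty acids that works in turn with FADS1 and FADS2, was 5.90-fold lower, at 27.6 to 35.7 CPM with SIK3 siRNA and 175 to 184 CPM with control siRNA (adjusted p = 8.73e-09). Of the enzymes that complete each elongation cycle, the ketoreductase gene HSD17B12 was 2.84-fold lower (56.8 to 65.6 CPM with SIK3 siRNA and 154 to 198 CPM with control siRNA; adjusted p = 4.71e-07) and the dehydratase gene HACD2 2.08-fold lower (76.3 to 90.8 CPM with SIK3 siRNA and 161 to 183 CPM with control siRNA; adjusted p = 6.22e-08). For all 3 the siRNA groups did not overlap.

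Of 16 genes of fatty acid activation and glycerolipid synthesis, 4 were higher and 8 lower (median −0.16). ACSL4, which activates arachidonate, was 3.46-fold lower at 61.4 to 90.3 CPM with SIK3 siRNA and 223 to 280.2 CPM with control siRNA (adjusted p = 9.51e-08), AGPAT3, an acyltransferase, 2.02-fold lower (adjusted p = 1.48e-06) and LPIN3, a phosphatidate phosphatase, 2.12-fold higher (adjusted p = 1.22e-05). Of 14 genes of sterol uptake, storage and trafficking, 13 were tested, 4 were higher and 7 lower (median −0.15), beside the same shares of all genes. LRP8, a lipoprotein receptor, was 1.79-fold higher (adjusted p = 8.78e-06), the oxysterol-binding protein gene OSBP 1.53-fold higher (adjusted p = 7.05e-05) and the endosomal sterol carrier gene STARD3 1.32-fold lower (adjusted p = 0.000311).

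Of 8 genes of the liver X receptor branch, which senses oxysterols and drives sterol export, 2 were higher and 1 lower (median 0.00), and 5 were called with the block, beside 72.5% of all genes with it. RXRB, a partner of the receptors, was 1.78-fold lower (adjusted p = 3.37e-06), the receptor gene NR1H3 1.52-fold higher (adjusted p = 0.000196) and the sterol exporter gene ABCG1 1.83-fold higher (adjusted p = 0.0355), from levels of at most 1.98 CPM. The siRNA libraries overlapped for ABCG1, and its lowest library held 1 count. By condition ABCG1 was called without TNF only (adjusted p = 0.0429, against 0.547 at 30 min and 0.569 at 4 h). Of 11 isoprenoid genes, which draw on the same farnesyl diphosphate, 4 were higher and 2 lower (median 0.07). DHDDS, which makes dolichol precursors, was 2.19-fold higher at 80.4 to 106 CPM with SIK3 siRNA and 37.8 to 47.8 CPM with control siRNA (adjusted p = 2.18e-06), the prenylprotein methyltransferase gene ICMT 1.54-fold higher (adjusted p = 1.29e-05) and the prenyltransferase subunit gene PGGT1B 1.74-fold lower (adjusted p = 3.79e-05). GRAMD1B, ELOVL3, THRSP, OLAH and OXSM did not pass the filter on low counts.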

How the data were processed

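Total RNA of PANC-1 cells was extracted with RNeasy and DNase I and made into libraries with ScriptSeq, per the labels. The authors deposited 12 tables of raw counts, 1 read count per gene and library, and the submitters' processing notes name STAR 2.05b, edgeR and GRCh38. The strand setting and the annotation release are not given in the sources used here. The authors' summary entries stayed out of library sizes and tests (unmapped 6.01 to 7.70%, multimapping 4.94 to 45.3%, no feature 8.35 to 17.1% and ambiguous 1.76 to 4.78% of reads). Symbols, positions and exon lengths came from GENCODE 29, which named 56927 of 60669 identifiers.

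The genes and lists were chosen with earlier results of these data known. Conditions were read from file names, with titles as an alternative. The test was run in edgeR 4.0.16 under R 4.3.3: filterByExpr (minimum count 10) kept 16695 genes, TMM scaled the libraries, and 1 quasi-likelihood fit of 6 group means (6 residual degrees of freedom, no block) gave all comparisons, adjusted by Benjamini-Hochberg over all genes at 0.05. Values with ± beside a log2 fold change are SE from the fit. The averaged comparison takes the mean of the 3 SIK3 siRNA groups over that of the 3 control siRNA groups.

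To see whether replicate numbers pair the libraries, each group's deviation of replicate 1 from the mean was correlated with that of every other group over genes. The correlation was over 0.1 in 15 of 15 pairs (0.35 to 0.53, median 0.42). Results of the fit blocked on that number therefore stand beside counts and some results on single genes. The block gained 65 calls of 352 results on single genes, and not all of these are given. Chi-square per degree of freedom of replicates was 16.8 to 34.4, above counting error, so no libraries were merged.

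All 32 genes are named. Those with values per library are, within each branch, the 6 sterol, 5 fatty acid and 5 control genes with the smallest adjusted p in the averaged comparison, plus HMGCS1, shown for its TNF response and chosen after its values were seen; of each other list the 3 genes with the smallest adjusted p are named. The fit was tested on simulated data drawn without pairing of the replicates, so that test does not cover the pairing. Alternatives were the block, DESeq2 1.42.0 size factors and Wald test, library totals, no filter on counts, a filter at 1 CPM in 4 or more libraries, an adjusted p under 0.01, titles, and each library left out. Added after seeing the data were the Wald test and titles with the block, the omission of SIK3 siRNA with 4 h, and the comparison of the groups with matching labels. Motifs were searched in the RefSeq promoters (GRCh38.p14) of 28 genes, without ACAT2, FASN, SQLE and FDFT1. The NF-κB consensus was not among the motifs planned. Tables and figures were made in Python 3.11.15.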

Additional observations from a re-analysis of the deposited data

Results flagged for a closer look

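ELOVL7 differed between the siRNAs in its response to 4 h of TNF-α, by an interaction term of −2.9 on the log2 scale (adjusted p = 0.000364, edgeR quasi-likelihood test over all genes). By file names, its level after 4 h was 2.41-fold higher with SIK3 siRNA and 18.0-fold higher with control siRNA, and both libraries of each group lay above both unstimulated ones. The call held when each of the 12 libraries was left out in turn.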

How the results depend on the processing

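Of 352 results on single genes 93 were called, and 0 of these changed sign under the alternatives with the same conditions; of the 93, 58 held in all 12 omissions of 1 library and 35 were lost in at least 1. The replicate block lost 0 calls and gained 65, library totals lost 14 and gained 8, DESeq2 size factors 1 and 1, the DESeq2 Wald test 1 and 3, no filter 4 and 10, the stricter filter 0 and 1, and an adjusted p under 0.01 lost 29. Omission of SIK3 siRNA with 4 h lost 4 and gained 1 of 224. Library totals moved the median log2 fold change of all genes at 4 h between siRNAs to 0.13, against 0.03 with TMM, and split the genes called for control siRNA at 4 h 820 higher and 825 lower, against 923 and 578.

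With the replicate block, genes called were 9746 for SIK3 siRNA without TNF and 9771 at 30 min, and for TNF 563 at 30 min and 3642 at 4 h with SIK3 siRNA, 464 and 3928 with control siRNA, and 44 and 1996 for the interactions; of the 32 genes 25 were called between siRNAs at 30 min, 3 and 10 for TNF with SIK3 siRNA, 3 and 9 with control siRNA and 8 for the 4 h interaction. The DESeq2 Wald test called 57 and 85 genes at 30 min with SIK3 siRNA and control siRNA and 6 for the 30 min interaction. With the block it called 481 and 2690 genes for TNF with SIK3 siRNA, 393 and 3104 with control siRNA, and 56 and 1589 for the interactions; of the 32 it called 23 between siRNAs at 30 min, 3 and 9 with SIK3 siRNA, 3 and 9 with control siRNA, and 1 and 8 for the interactions. An adjusted p under 0.01 left 4206 and 4276 genes between siRNAs at 30 min and 4 h, 10 and 269 for TNF with SIK3 siRNA, 27 and 802 with control siRNA, 66 for the 4 h interaction and 4541 for the groups with matching labels; of the 32 it left 10 and 9 between siRNAs without TNF and at 30 min, and 0 and 1 for TNF with control siRNA. No filter called 90 and 1109 genes for TNF with SIK3 siRNA, 101 at 30 min with control siRNA, 18 and 505 for the interactions, and 5 of the 32 at 4 h with control siRNA. At 30 min with control siRNA, where ELOVL7 was the single call, 0 of the 32 were called with library totals, DESeq2 size factors and omission of SIK3 siRNA with 4 h.

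With conditions from the titles, genes called were 49 without TNF, 1182 at 4 h and 2789 averaged between siRNAs, 6687 and 6980 for TNF with SIK3 siRNA, 1501 and 6330 with control siRNA, and 4760 and 576 for the interactions. Of the 32 they were 1, 1 and 7 between siRNAs, 15 and 18 with SIK3 siRNA, 2 and 17 with control siRNA, and 10 for the 30 min interaction. Titles with the block gave 464 and 10185 genes between siRNAs without TNF and at 30 min, 9980 and 10302 with SIK3 siRNA, 3928 and 9648 with control siRNA, and 8415 and 3374 for the interactions; of the 32 they gave 3 without TNF, 22 and 24 with SIK3 siRNA, 9 and 23 with control siRNA, and 21 and 14 for the interactions. These counts regroup the libraries, so they compare other pairs.

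Leaving out 1 library at a time, counts of all genes between siRNAs ran from 4835 to 6392 without TNF, 4668 to 6325 at 30 min, 4766 to 6669 at 4 h and 9254 to 9658 averaged; for TNF from 6 to 25 and 212 to 699 with SIK3 siRNA, 22 to 44 and 857 to 1360 with control siRNA, 61 to 189 for the 4 h interaction and 4945 to 6868 for the matching groups. Of the 32 they ran from 10 to 17, 9 to 15, 12 to 16 and 18 to 21 between siRNAs, 1 to 3 at 4 h and 0 to 0 at 30 min with control siRNA, and 12 to 19 for the matching groups. All omissions were made in the fit without the block. Where an omission leaves 1 library in a group, that library is assumed to vary like the others. The cause of these shifts was not tested beyond the smaller number of libraries. Low counts limit CYP51A1 and ELOVL6, near 1 CPM, and for CYP51A1 reads shared with its pseudogenes may add to this.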
